A study of Mus musculus with 12 samples.

Results

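The genes described here set which fast transmitter or monoamine a neuron makes and loads into vesicles. They are 10 genes: Slc17a6 and Slc17a7 (vesicular glutamate transporters VGLUT2 and VGLUT1), Gad1 and Gad2 (the glutamate decarboxylases that make GABA), Slc32a1 (the vesicular transporter of GABA and glycine), Ddc and Th (enzymes of monoamine synthesis), Slc18a2 (the vesicular monoamine transporter VMAT2), and Chat and Slc18a3 (synthesis and vesicular loading of acetylcholine). They were chosen by name, out of 18193 genes with a probe set annotated to a single symbol, and all 10 were on the array, with 17 probe sets between them. For each gene the probe set with the highest mean over the 12 arrays was used. The arrays measured mouse embryonic stem (ES) cells of 129P2/OlaHsd origin (E14, Ainv15) that carry a tetracycline-responsive Neurog1 transgene, at 24, 48 and 72 h of doxycycline at 1 ug/ml and in uninduced cells of the maintenance culture (0 h), with 3 arrays in each of the 4 groups. All groups were grown with serum, leukaemia inhibitory factor, puromycin and G418. The uninduced cells were sampled at 0 h, so the effects of the transgene, of doxycycline and of days in culture cannot be told apart. The labels call the arrays of a group biological replicates without naming separate cultures, so the p-values measure the spread between these arrays.

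A neuron's transmitter is defined by a small set of proteins: an enzyme that makes the molecule, unless it is a common metabolite such as glutamate, and a transporter in the vesicle membrane that uses the proton gradient to load it. Glutamatergic neurons are recognised by a VGLUT, GABAergic neurons by a GAD enzyme with Slc32a1, cholinergic neurons by Chat with Slc18a3, and monoaminergic neurons by Slc18a2 with Ddc and, for catecholamines, Th. In the embryo Neurog1 acts in the precursors of cranial and spinal sensory neurons, most of which become glutamatergic.

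Of the 10 genes, 3 changed strongly. Slc18a2 rose between 24 and 48 h, Slc17a6 was higher at 72 h, and Ddc was lower at each time of induction. Slc18a3 was modestly higher at 48 h, a call that was lost in 6 of 21 alternative settings. The other 6, namely Slc17a7, Gad1, Gad2, Slc32a1, Chat and Th, stayed low. On no group of 3 arrays did all 3 signals of any of these 6 exceed the array's own median signal, which lay between 19.5 and 32.8 over the 12 arrays and is called the floor here. Signals are the authors' MAS5 values, which are linear, and all differences are of log2(signal + 16), so changes of dim genes come out smaller than they are.

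**Figure D1:**
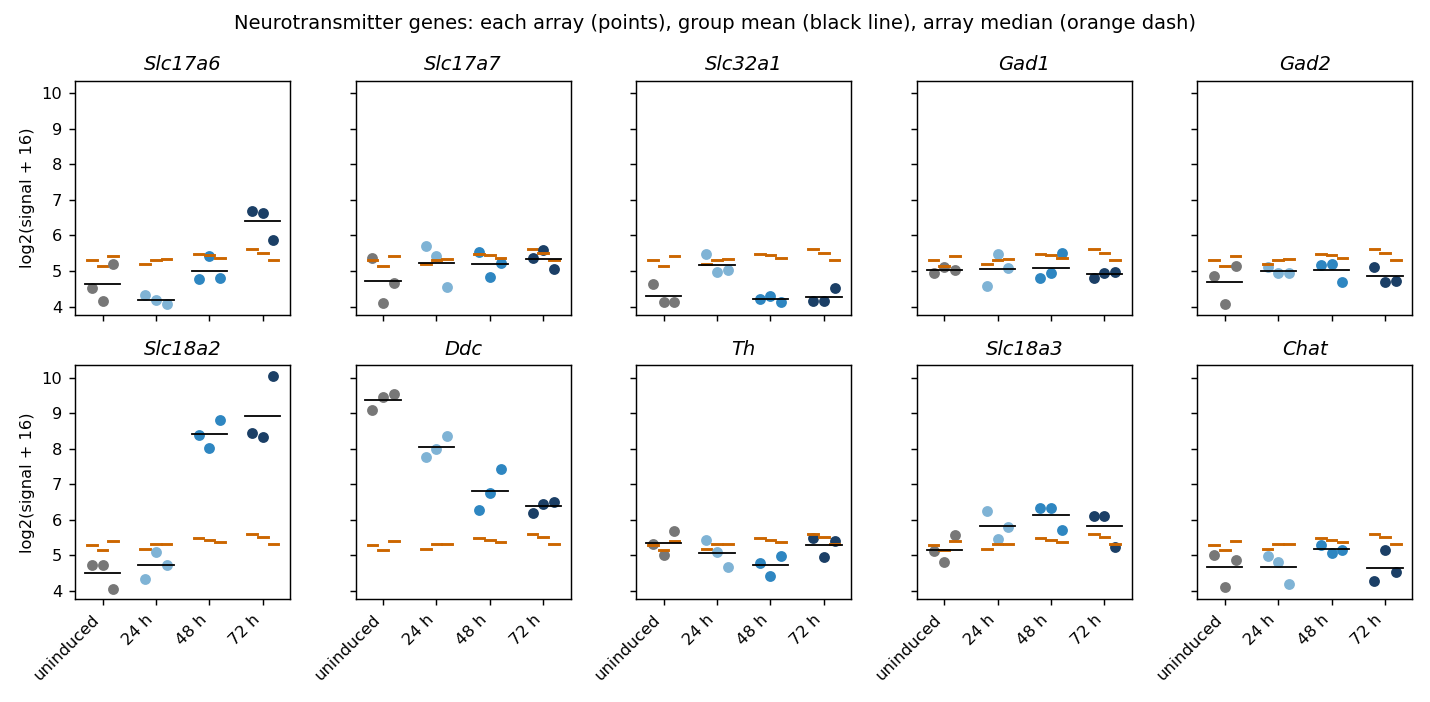
Log2(signal + 16) of the 10 genes (vertical axis) in uninduced cells and at 24, 48 and 72 h of induction (horizontal axis), with 1 point per array, the group mean as a black line and each array's own median signal as an orange dash. Slc18a2 lay at or below 5.09 on the uninduced and 24 h arrays and at or above 8.01 on the 48 and 72 h arrays, Ddc fell towards the array median, Slc17a6 rose above it on the 3 arrays at 72 h, and Gad2 and Chat lay below it on all 12 arrays.

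The starting state and the neuronal turn were checked with markers. Neurog1 gave a signal of 4.53 to 18.7 on the uninduced arrays and 465 to 1152 on the induced arrays. Of 12 ES cell markers 12 were lower at 48 h and at 72 h than in uninduced cells (14% and 18.6% of all genes were lower), with the largest falls in Tdgf1 (-5.85 ± 0.72 at 48 h) and Pou5f1 (-4.43 ± 0.45), on the log2(signal + 16) scale. Their summed signal was 48260 to 51960 in uninduced cells, 21790 to 27090 at 24 h, 5922 to 9014 at 48 h and 5243 to 5792 at 72 h. Of 12 neuron markers 11 were higher and 0 lower at both 48 and 72 h (22.6% and 25.3% of all genes were higher), led at 72 h by the neurofilament gene Nefm (6.59 ± 0.43) and the microtubule-binding Dcx (6.22 ± 0.31). At 24 h 3 were higher and 2 lower, the latter Nefl (-1.27 ± 0.29) and Stmn2 (-1.56 ± 0.28). Stmn2 was already at a mean log2 of 11.7 in uninduced cells. The sums of the neuron markers were 4348 to 5159 in uninduced cells, 2287 to 5794 at 24 h, 12620 to 19200 at 48 h and 32380 to 32610 at 72 h. Induced 24 h replicate 1 stood apart from its group. Its lowest correlation with another 24 h array across the tested genes was r = 0.787, against r = 0.977 between the other 24 h arrays and at least r = 0.961 within every other group. Leaving it out gave 2972 genes called at 24 h against uninduced cells, in place of 1335, and changed the call of 1 difference among the 4 tested genes, that of Slc17a6 for 72 h against 48 h. In these bulk samples, fewer cells of a type and less RNA per cell cannot be told apart.

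The 250 bases before the annotated starts of the 3 genes that changed strongly are shown because they are the closest upstream sequence to each start. Whether they are regulatory in these cells was not tested. They are RefSeq sequence of build GRCm38.p6, written 5′ to 3′ on the gene's strand, with any CAGATG (the E-box form known to bind Neurog and Neurod factors, read on both strands) or CAGCTG in capitals. Slc17a6 and Ddc each have a pair of annotated starts.
Slc18a2 (chr19:59260628-59260877, plus strand): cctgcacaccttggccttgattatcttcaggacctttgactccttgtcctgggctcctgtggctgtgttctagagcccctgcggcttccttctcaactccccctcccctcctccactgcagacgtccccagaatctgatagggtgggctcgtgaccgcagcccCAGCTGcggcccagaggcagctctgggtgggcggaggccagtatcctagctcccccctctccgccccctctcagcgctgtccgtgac
Slc17a6, upstream start (chr7:51621580-51621829, plus strand): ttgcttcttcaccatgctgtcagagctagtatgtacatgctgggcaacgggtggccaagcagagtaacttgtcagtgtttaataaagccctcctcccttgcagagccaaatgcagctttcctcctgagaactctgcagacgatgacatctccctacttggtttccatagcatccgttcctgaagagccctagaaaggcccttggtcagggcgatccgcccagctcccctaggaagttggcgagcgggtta
Slc17a6, downstream start (chr7:51624387-51624636, plus strand): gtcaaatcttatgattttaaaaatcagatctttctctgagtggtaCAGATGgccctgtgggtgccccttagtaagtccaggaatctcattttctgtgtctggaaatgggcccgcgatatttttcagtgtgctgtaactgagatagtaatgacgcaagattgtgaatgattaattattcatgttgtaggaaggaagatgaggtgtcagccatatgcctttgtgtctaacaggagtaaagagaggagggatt
Ddc, upstream start (chr11:11898145-11898394, minus strand): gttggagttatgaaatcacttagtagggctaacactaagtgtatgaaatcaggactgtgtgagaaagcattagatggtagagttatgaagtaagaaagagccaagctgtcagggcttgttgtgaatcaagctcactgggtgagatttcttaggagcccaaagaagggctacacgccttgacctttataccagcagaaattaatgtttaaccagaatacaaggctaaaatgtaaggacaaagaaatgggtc
Ddc, downstream start (chr11:11890409-11890658, minus strand): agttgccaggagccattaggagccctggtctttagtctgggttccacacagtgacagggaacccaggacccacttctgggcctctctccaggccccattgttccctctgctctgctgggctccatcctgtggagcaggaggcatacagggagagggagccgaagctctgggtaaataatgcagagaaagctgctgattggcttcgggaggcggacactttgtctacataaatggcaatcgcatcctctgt

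The Slc18a2 window held 1 CAGCTG, at position -87 counted from the start, and the downstream Slc17a6 window held 1 CAGATG, at position -205. Over all 32851 promoters in the table, 13% held CAGCTG and 14.4% held CAGATG in the same 250 bases. The broader E-box CANNTG, which contains both forms, was present in 66.2% of all promoters and had 0 matches in either Ddc window, which says only that these letters are not in these windows. The RE1 core and the Ebf motif were searched on both strands as exact matches at their fixed bases. They had 0 such matches in the windows of all 10 genes and were present in 0.0335% and 0.779% of all promoters. With so few promoters meeting the exact RE1 core, its absence from these windows says little. Near matches were not counted, and the Gad2 window held a stretch that differed from the RE1 core at the first base alone. Whether that stretch acts as an RE1 site was not tested. Among the 6 genes that stayed low, the Gad2 window held 1 CAGATG and the Chat window 1 CAGCTG.

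Slc18a2 encodes the transporter that loads dopamine, noradrenaline, serotonin and histamine into vesicles. Its signal was 10.4, 10.4 and 0.689 on the uninduced arrays (replicates 1 to 3) and 4.39, 18.1 and 10.8 at 24 h. It was 321, 241 and 433 at 48 h and 330.1, 302 and 1038 at 72 h. The arrays of uninduced cells and of 24 h overlapped near the floor, and every array of 48 and 72 h lay far above all of them. Among the 45101 probe sets of an array, the 12 values of this probe set ran from percentile 1.08 to percentile 95. In the linear model fitted to all 12 arrays (limma, Benjamini-Hochberg adjustment over 11806 genes, n = 3 against 3), Slc18a2 at 24 h differed from uninduced cells by 0.23 ± 0.42 (log2, SE; adjusted p = 0.761). Without induced 24 h replicate 1 that difference was 0.41 (limma, adjusted p = 0.531). It was 3.90 ± 0.42 at 48 h (adjusted p = 2.1e-05) and 4.43 ± 0.42 at 72 h (adjusted p = 4.71e-06). For 48 h against 24 h it was 3.68 ± 0.42 (limma, adjusted p = 0.000134). For 72 h against 48 h the difference was 0.53 ± 0.42 (adjusted p = 0.971), with overlapping arrays. That last value rested on 1 array, since it was -0.03 without induced 72 h replicate 3. The size of the rise from the floor depends on the pseudocount: at 48 h it was 5.75 with a pseudocount of 1 and 2.45 with 64, and the call held with both.

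Ddc encodes aromatic L-amino acid decarboxylase, which makes dopamine from L-DOPA and serotonin from 5-hydroxytryptophan and is also made outside the nervous system. Of the 10 genes, Ddc alone lay above the array median on all 12 arrays. Its signal was 532, 679 and 719.6 in uninduced cells, 202, 239.7 and 314 at 24 h, 61.0, 91.1 and 158 at 48 h, and 56.4, 71.8 and 74.996 at 72 h. Each induced group lay wholly below the uninduced group, and the 48 and 72 h arrays overlapped. Against uninduced cells the log2 difference came to -1.31 ± 0.29 at 24 h (limma, adjusted p = 0.0131), -2.54 ± 0.29 at 48 h (adjusted p = 3.94e-05) and -2.97 ± 0.29 at 72 h (adjusted p = 7.13e-06). From 24 to 48 h it fell by a further 1.23 on the log2 scale (adjusted p = 0.0122), and 72 h against 48 h gave -0.44 ± 0.29 (adjusted p = 0.897). The 24 h call was lost without uninduced replicate 3 (limma, adjusted p = 0.0545) and held without induced 24 h replicate 1 (-1.17, adjusted p = 0.0095), with 0.00316 to 0.0619 over the alternatives. The call for 48 h against 24 h was lost without induced 48 h replicate 1 (limma, adjusted p = 0.0687, 0.00181 to 0.0826 over the alternatives). The second Ddc probe set gave 0.703 to 3.99 on all 12 arrays and did not follow the brighter one. The mean of both probe sets gave differences of -0.67, -1.25 and -1.51 at 24, 48 and 72 h, all past the threshold, and -0.58 for 48 h against 24 h, which was not (limma, adjusted p = 0.0532). Which transcript each probe set reads was not analysed here.

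Th encodes tyrosine hydroxylase, the rate-limiting enzyme of catecholamine synthesis. Its signal was 24.1, 15.96 and 35.5 in uninduced cells, 27.5, 17.9 and 9.53 at 24 h, 11.6, 5.42 and 15.3 at 48 h, and 29.3, 14.9 and 26.2 at 72 h. All 4 groups overlapped except that the 48 h arrays lay below the uninduced ones, and 4 of the 12 arrays were above their median. Th did not pass the filter for testing. With a looser filter that takes any 3 of the 12 arrays, chosen after seeing the data, the 48 h difference was -0.61 ± 0.28 (limma, adjusted p = 0.112). Among the monoamine genes the vesicular transporter thus rose, the decarboxylase fell and the hydroxylase was near the floor.

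**Figure D2:**
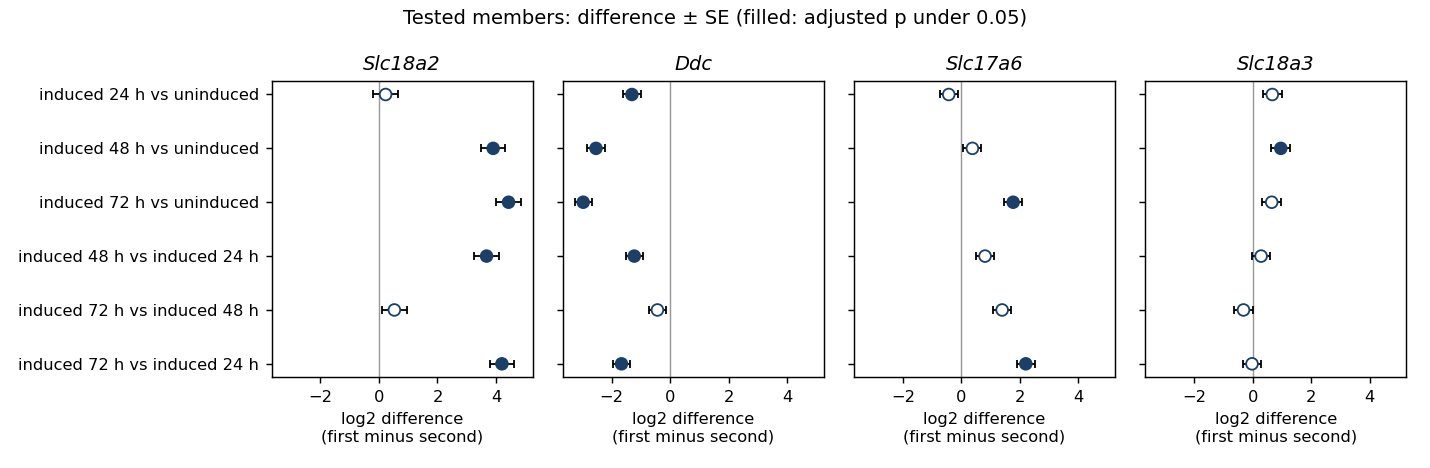
Log2 difference (horizontal axis, first group minus second, with SE from limma, n = 3 arrays per group) of the 4 genes that could be tested, in 6 comparisons (vertical axis), filled where the adjusted p was under 0.05. Slc18a2 changed between 24 and 48 h, Ddc lay below 0 in every comparison and passed in all but 72 h against 48 h, Slc17a6 was highest against 24 h (2.20), and Slc18a3 passed at 48 h alone.

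Slc17a6 encodes VGLUT2, the vesicular glutamate transporter of most early and subcortical glutamatergic neurons. Its signal was 7.03, 1.85 and 20.6 in uninduced cells, 4.01, 2.15 and 0.854 at 24 h, 11.4, 27.0 and 11.9 at 48 h, and 87.7, 82.9 and 42.1 at 72 h. Every 72 h array lay above every array of the other groups, and those other 9 arrays were all at or below their median. The second probe set showed the same order, with 0.575 to 18.1 in uninduced cells, 0.793 to 10.3 at 24 h, 9.86 to 14.3 at 48 h and 36.2 to 54.6 at 72 h. At 72 h, log2 signal exceeded that of uninduced cells by 1.77 ± 0.31 (limma, adjusted p = 0.00058), and that from 24 h was 2.20 ± 0.31 (adjusted p = 0.000224). At 24 h it was -0.43 ± 0.31 (adjusted p = 0.405) and at 48 h 0.38 ± 0.31 (adjusted p = 0.373) against uninduced cells. For 72 h against 48 h it was 1.39 ± 0.31 and did not pass (adjusted p = 0.0606, 0.000122 to 0.446 over the alternatives). That comparison passed without induced 24 h replicate 1 (limma, adjusted p = 0.0272), without induced 72 h replicate 3 (0.0374) and without uninduced replicate 3 (0.0423). As a dim gene it moved with the pseudocount, to 3.11 with 1 and 0.86 with 64 at 72 h against uninduced cells, both past the threshold.

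Slc17a7 encodes VGLUT1, typical of later cortical and hippocampal neurons. Its signal was 25.5, 1.28 and 9.52 in uninduced cells, 35.9, 27.1 and 7.28 at 24 h, 30.6, 12.2 and 21.5 at 48 h, and 25.3, 32.0 and 17.4 at 72 h. The groups overlapped throughout, 5 of the 12 arrays were above their median, and the gene did not pass the filter. With the looser filter the 72 h difference was 0.62 ± 0.37 (limma, adjusted p = 0.2).

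The GABA genes stayed near the floor at all times. Gad1, which encodes GAD67, ran from 7.81 to 29.7 over the 12 arrays, and exceeded the array median on 2 of them, 1 at 24 h and 1 at 48 h. Its signal was 14.7 to 18.9 in uninduced cells, 7.81 to 28.5 at 24 h, 12.1 to 29.7 at 48 h and 11.7 to 15.4 at 72 h, with all groups overlapping. Gad2, which encodes GAD65, was below the array median on all 12 arrays, at 0.842 to 20.8. The second probe sets of Gad1 and Gad2 reached 13.5 and 12.2 at most, also below the median on every array.

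Slc32a1 was the 1 low gene with a group apart. Its signal was 8.68, 1.44 and 1.61 in uninduced cells, 29.0, 15.2 and 16.5 at 24 h, 2.72, 3.52 and 1.52 at 48 h, and 1.91, 1.74 and 7.02 at 72 h. The 3 arrays of 24 h lay above the 9 others, but 1 of them alone, induced 24 h replicate 1, exceeded its array median. The gene was therefore not tested with the filter. Fitted without a filter, the 24 h difference was 0.86 ± 0.20 (limma, adjusted p = 0.022), and 48 h against 24 h gave -0.94 ± 0.20 (adjusted p = 0.00865). The other 3 probe sets of Slc32a1 did not show it. Their 24 h signals of 0.861 to 4.09 overlapped those in uninduced cells, 0.803 to 10.6.

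Slc18a3, the vesicular acetylcholine transporter, is encoded within the span of the Chat gene on the mouse genome, and the pair is known as the cholinergic locus. Slc18a3 gave 18.7, 11.9 and 31.7 in uninduced cells, 60.6, 28.0 and 39.6 at 24 h, 64.1, 65.3 and 36.7 at 48 h, and 52.4, 53.6 and 21.7 at 72 h. The 48 h arrays lay above all uninduced arrays, whereas 24 and 72 h overlapped with uninduced cells. Set against uninduced cells, Slc18a3 differed by 0.96 ± 0.32 (log2) at 48 h (limma, adjusted p = 0.0318), 0.67 ± 0.32 at 24 h (adjusted p = 0.202) and 0.65 ± 0.32 at 72 h (adjusted p = 0.116). The 48 h call was lost without any of 4 single arrays: induced 48 h replicates 1 (adjusted p = 0.105) and 2 (0.108) and uninduced replicates 1 (0.0842) and 2 (0.116). It was also lost with no filter (limma, adjusted p = 0.0509) and with quantile normalization (limma, adjusted p = 0.0773, 0.00145 to 0.116 over the alternatives). The 72 h difference passed without induced 72 h replicate 3 (0.94, limma, adjusted p = 0.0342, 0.00127 to 0.321 over the alternatives). Chat, which encodes choline acetyltransferase, was below the array median on all 12 arrays. It ran from 1.44 to 16.4 in uninduced cells, 2.23 to 15.9 at 24 h, 17.6 to 23.1 at 48 h and 3.25 to 19.7 at 72 h, so the 48 h arrays lay above the uninduced ones while still under their own medians.

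Counted together, 1 of the 4 tested genes was called at 24 h against uninduced cells, a fall, where 11.3% of all tested genes were called (8.12% higher, 3.18% lower). That share moves with 1 array, since 2972 of 11893 genes were called without induced 24 h replicate 1, with Ddc again the 1 member. At 48 h 2 were higher and 1 lower, against 36.6% of all genes called (22.6% higher, 14% lower). At 72 h 2 were higher and 1 lower, against 43.9% called (25.3% higher, 18.6% lower). For 48 h against 24 h 1 was higher and 1 lower, with 17.8% of all genes called (10.3% higher, 7.55% lower), and for 72 h against 24 h 2 were higher and 1 lower, with 31.3% called (16.2% higher, 15.1% lower). For 72 h against 48 h 0 of 4 were called with limma, with 0.796% of all genes called (0.644% higher, 0.152% lower), and Slc17a6 alone had an unadjusted p under 0.05 (0.000652). Slc18a2, Slc17a6 and Slc18a3 entered through the groups in which they were high, while Ddc passed the filter in every group. These counts therefore describe 4 genes and not all 10. Fitted without a filter, the 72 h difference from uninduced cells still passed for Slc17a6 (limma, adjusted p = 0.000675) and Slc18a2 (adjusted p = 5.68e-06).

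Genes outside the 10 that make, clear or take up each transmitter moved in both directions. Of all tested genes, 22.6% were higher and 14% lower at 48 h, and 25.3% and 18.6% at 72 h. Of 12 tested monoamine genes, 5 rose and 1 fell at 48 h, and 3 rose and 2 fell at 72 h against uninduced cells (median difference 0.02 and 0.10, against 0.12 and 0.09 over all genes). Maob, a mitochondrial monoamine oxidase, had 226.7 to 285.5 at 48 h against 2.54 to 21.5 in uninduced cells (3.28 ± 0.31, limma, adjusted p = 9.02e-06). Maoa, the other oxidase, fell by 0.96 on the same scale (adjusted p = 0.0102), to 332.9 to 369 at 48 h, against 625 to 819 in uninduced cells. Pcbd1, which recycles the tetrahydrobiopterin cofactor of the hydroxylases, rose at 48 h (2.51 ± 0.32, limma, adjusted p = 7.48e-05), and Spr, which makes that cofactor, fell by 1.39 at 72 h (adjusted p = 0.0105). Tph2, Hdc, Slc6a3 and Slc6a4, which mark serotonin, histamine and dopamine neurons, were at or below the array median on every array of all 4 groups. Tph1 and Pnmt of the same list were higher at 48 h, by 0.92 ± 0.22 (limma, adjusted p = 0.006) and 0.68 ± 0.24 (adjusted p = 0.0449). Both were at the floor on every array of uninduced cells, 24 h and 72 h, and neither was called at 72 h.

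**Figure D3:**
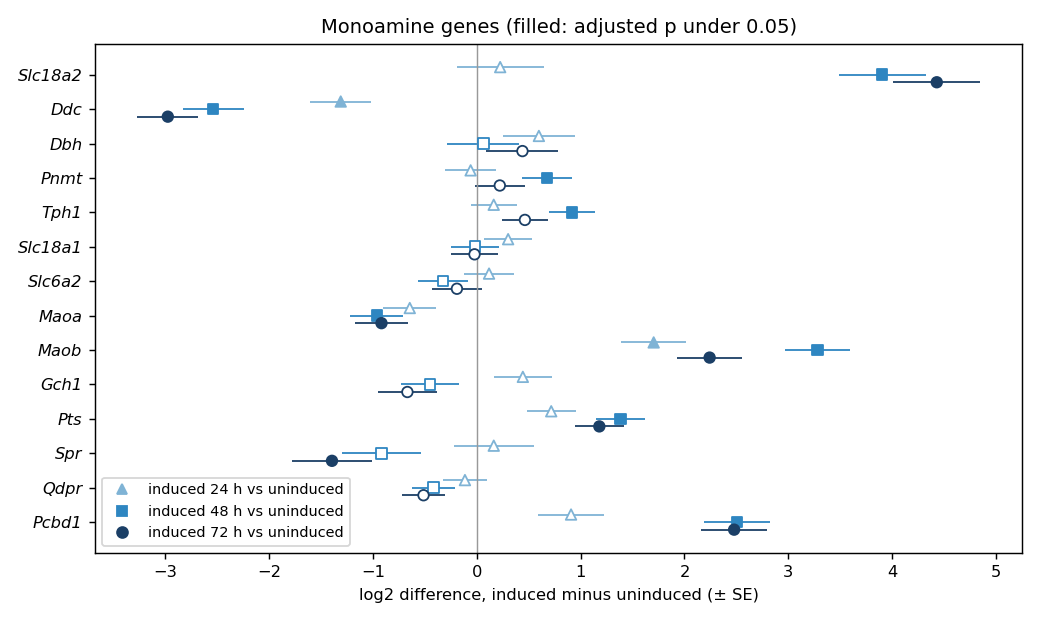
Log2 difference from uninduced cells (horizontal axis, with SE from limma, n = 3 arrays per group) of Slc18a2, Ddc and the 12 tested genes of the monoamine list (vertical axis) at 24, 48 and 72 h, filled where the adjusted p was under 0.05. Slc18a2, Maob and Pcbd1 lay to the right at 48 and 72 h, and Ddc lay to the left at all times.

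Of 10 tested genes of glutamate handling, 2 rose and 5 fell at 48 h, and 3 rose and 5 fell at 72 h (median -0.63 and -0.49). Over all tested genes 22.6% were higher and 14% lower at 48 h, and 25.3% and 18.6% at 72 h. Slc1a2, the glutamate transporter GLT-1 known from astrocytes, had 543.7 to 624.4 at 48 h against 1.96 to 10.8 in uninduced cells (4.73 ± 0.42, limma, adjusted p = 5.59e-06). Got1 and Glud1, enzymes that interconvert glutamate and 2-oxoglutarate, fell by 1.93 and 1.41 at 48 h. Of 5 tested GABA and glycine genes, 2 rose and 1 fell at 48 h and 2 rose and 2 fell at 72 h (median 0.06 and -0.06). The GABA transaminase gene Abat rose (1.61 ± 0.27 at 48 h, limma, adjusted p = 0.000647), and Shmt2 of glycine metabolism fell by 1.78. The transporter genes Slc6a11 and Slc6a5 were at the floor on all arrays. Of 5 tested acetylcholine genes, 1 rose (Bche, butyrylcholinesterase, 1.96 ± 0.40 at 48 h) and 2 fell at both 48 and 72 h (median -0.34 and -0.06). Those that fell were Chka, a choline kinase (-1.01 ± 0.26 at 48 h), and Slc44a1, a choline transporter (-0.85 ± 0.29). Slc5a7, the choline transporter that defines cholinergic terminals, and Ache were at or below the array median on all 12 arrays, at no more than 13.95 and 28.8.

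Transcription factors known to select a transmitter identity were measured beside the 10 genes. Of the factors of glutamatergic neurons, 8 of 10 tested rose at 48 h and 9 of 10 at 72 h against uninduced cells, and 0 fell, with 22.6% and 25.3% of all genes higher. Isl1 had 803 to 1523 at 48 h against 8.27 to 15.3 in uninduced cells, and Pou4f1, a factor of sensory neurons, had 437 to 690.5 against 12.4 to 38.8. Both were thus high at 48 h, when the Slc17a6 signal was at or below the array median. That list held 20 factors, 17 of them measured. Tbr1, Neurod6, Neurog2, Lmx1b and Barhl2 were at the floor on every array, and Atoh1 and Barhl1 on every array of 48 and 72 h. Eomes and Tlx3 of the same list were not called at 48 h. Tlx3 differed by 0.39 ± 0.30 at 48 h (limma, adjusted p = 0.345) and by 1.80 ± 0.30 at 72 h (adjusted p = 0.000444). Of GABAergic factors 3 of 7 tested rose at 48 h and 4 of 7 at 72 h, led by Sp8 (3.26 ± 0.27 at 48 h), while Dlx1, Dlx5, Dlx6 and Ptf1a were at the floor on every array. Of cholinergic factors 2 of 6 rose at 48 h and 3 of 6 at 72 h, among them Isl1, which is in both lists, and Olig2 (2.93 ± 0.83 at 48 h), whereas Lhx8 was at the floor throughout. Of monoaminergic factors 5 of 8 rose at both times, led by Insm1 (5.01 ± 0.48 at 48 h) and Foxa2 (2.66 ± 0.33), with Lmx1b, En1 and Gata3 at the floor on every array. The medians over these 4 lists at 48 h were 2.17, 0.81, 0.69 and 1.11 in the order given.

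The vesicle release machinery, which any transmitter needs, rose in most of its tested members. Against uninduced cells, 5 of 19 tested members rose at 24 h (8.12% of all genes were higher), 14 of 19 at 48 h (22.6%) and 16 of 19 at 72 h (25.3%), with 0 lower (median 0.62, 1.85 and 2.18). Doc2a had the largest difference at 24 h (4.63 ± 0.31, limma, adjusted p = 6.44e-06). Its rise was not steady, since 48 h against 24 h gave -3.76 ± 0.31 (limma, adjusted p = 2.59e-05). Snap25, a subunit of the fusion complex, had 1440 to 1484 at 72 h against 1.67 to 10.9 in uninduced cells (6.09 ± 0.32, limma, adjusted p = 9.01e-08), and Syt11 rose by 3.51 ± 0.31. Without induced 24 h replicate 1 the machinery counts were 6, 14 and 16, and the glutamatergic factors numbered 5, 8 and 9 at 24, 48 and 72 h, against 3, 8 and 9 with it. The monoamine list then had 5 higher and 3 lower at 48 h and 3 higher and 4 lower at 72 h.

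**Figure D4:**
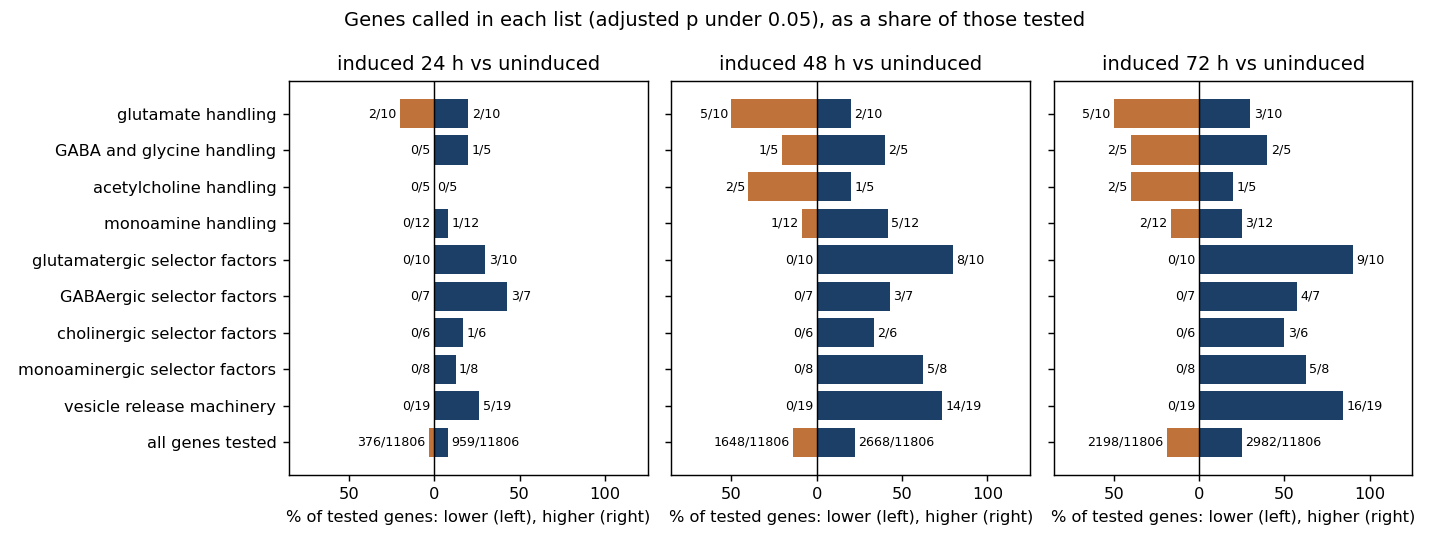
Share of tested genes called higher (blue, to the right) or lower (orange, to the left) than in uninduced cells, in percent on the horizontal axis, for 9 lists and for all 11806 genes, at 24, 48 and 72 h, with counts beside the bars. Vesicle release machinery reached 16 of 19 higher at 72 h and glutamatergic factors 9 of 10, while the handling genes of each transmitter moved in both directions.

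Markers of other cells that express members of the set were measured beside them. For comparison, 22.6% of all tested genes were higher and 14% lower at 48 h, with 25.3% and 18.6% at 72 h. Of 10 tested chromaffin and sympathetic markers, cells in which Slc18a2, Ddc and Th occur together, 4 rose and 0 fell at both 48 and 72 h. Their summed signal was 287.5 to 349 in uninduced cells, 1275 to 3884 at 24 h, 2297 to 3799 at 48 h and 2896 to 4535 at 72 h, and the largest differences were those of Chgb (5.14 ± 0.34) and Insm1 (5.01 ± 0.48) at 48 h, and of the receptor gene Ret (5.83 ± 0.35) and Chgb (5.65 ± 0.34) at 72 h. Dbh, which makes noradrenaline, was 19.5 to 37.5 at 48 h against 6.49 to 51.3 in uninduced cells, and Gata3 was at the floor on all arrays. Phox2a was at the floor on every array of 48 and 72 h, with -0.73 ± 0.34 at 48 h (limma, adjusted p = 0.115). Slc6a2 and Chga were not called at 48 or 72 h. Pnmt was called higher at 48 h (0.68 ± 0.24, limma, adjusted p = 0.0449) but not at 72 h. Hand2 was called higher at 72 h (1.06 ± 0.27, limma, adjusted p = 0.00744) but not at 48 h. Of the 10 mast cell and platelet markers, cells that also use Slc18a2, 2 were tested and 1 fell (Kit, by 1.41 at 48 h). Their sum was 419.6 to 505 in uninduced cells, 284 to 414 at 24 h, 219 to 264 at 48 h and 179 to 287 at 72 h, with Cpa3, Mcpt4, Fcer1a, Hdc and Pf4 at the floor in all groups. Of 6 tested peripheral sensory neuron markers 4 rose at 48 h and 6 at 72 h, with sums of 157 to 268 in uninduced cells, 307 to 327 at 24 h, 1691 to 2578 at 48 h and 4323 to 4952 at 72 h. That list held 12 markers, 9 of them measured. Runx3 was at the floor on every induced array, and Avil on every array of 24 and 48 h. Isl1, Pou4f1 and Tlx3 of this list are also among the glutamatergic factors. For Ddc, ES cell markers fell alongside it, as given above, and the part of any of these lists in the member results was not tested.

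Genes outside the set with the most similar course were named by Pearson's r over the 12 log2 values, as a description, since the 12 arrays share 4 groups. For Slc18a2 they were Agtr1a, an angiotensin II receptor (r = 0.993), the chemokine receptor Cxcr4 (r = 0.982) and Rin2 (r = 0.98). Agtr1a gave 196, 164 and 304 at 48 h and 250.5, 174 and 446 at 72 h, against 13.5, 21.0 and 2.6 in uninduced cells. For Slc17a6 they were Cadps2, a priming factor of vesicle release (r = 0.962), Edil3 (r = 0.961) and the sodium channel subunit Scn3b (r = 0.959). For Ddc they were Eprn (r = 0.982), the pluripotency factor Nanog (r = 0.972) and Hikeshi (r = 0.97). For Slc18a3 they were Tspan18, Metap1d and Naglu, at r = 0.914, 0.91 and 0.907. The number of genes above r = 0.9 was 441 for Slc18a2, 263 for Ddc, 63 for Slc17a6 and 5 for Slc18a3.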

How the data were processed

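Affymetrix arrays of 12 samples were analysed, 3 in each of 4 groups. The values deposited are linear intensity, 1 MAS5 signal for each probe set on each array, a method named in the submitters' processing notes without version or settings. The 2% trimmed mean was 150 on every array. No pair of arrays was identical. Gene names came from the platform's annotation, and all 10 members were matched by Entrez identifier to the NCBI gene table of GRCm38.p6. Promoter sequences came from RefSeq.

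Signals were transformed as log2(signal + 16), keeping the authors' scaling. A gene was tested where its brightest probe set exceeded the array median (percentile 50) on all 3 arrays of at least 1 group, leaving 11806 genes to test out of 18193. A linear model with 4 group terms was fitted in R 4.3.3 with limma 3.58.1, using a mean-variance trend in eBayes. Tests were two-sided, with Benjamini-Hochberg adjustment over the genes tested and a threshold of 0.05. Differences are given with the standard error (SE). The script was tested on simulated data. The members and the 17 other lists were chosen with earlier results of these data known. All 10 members are named. The rule for other names allowed the 2 largest rises and falls of each list in a comparison and markers at the floor, not all of which are printed, and the 3 genes most like each called member. Genes singled out beyond that, such as Dbh, Spr and the second members of a pair, were chosen after their values were seen. Alternatives covered the pseudocount, filter, normalization, choice of probe sets, arrays fitted, array weights, replicate block and each array left out. The number of arrays limits the precision. Arrays that share a replicate number deviated from their group means together: all 3 same-numbered pairs correlated above 0.1 in 4 of 6 comparisons, and the lowest pair was at 0.0787 for 72 h against uninduced cells and 0.0308 for 72 h against 24 h. The reported tests did not model these pairs, and a fit with the replicate number as a block was run as an alternative. That arrays deviate together by number comes from the data, since the labels state no shared batch.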

Additional observations from a re-analysis of the deposited data

How the results depend on the processing

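With 1 array left out at a time, the number of the 10 genes called ranged from 0 to 1 at 24 h, 2 to 3 at 48 h and 3 to 4 at 72 h against uninduced cells. It ranged from 1 to 2 for 48 h against 24 h and from 0 to 1 for 72 h against 48 h, and was 3 throughout for 72 h against 24 h. For 72 h against 48 h, 1 gene (Slc17a6) in place of 0 was called with a pseudocount of 64, with probe sets averaged, with array weights and when fitting only the 6 arrays concerned. With no filter Slc32a1 was added, which gave 2 in place of 1 at 24 h, 3 in place of 2 for 48 h against 24 h and 4 in place of 3 for 72 h against 24 h, while 48 h against uninduced cells had 2 without Slc18a3. At 24 h 0 were called with those 6 arrays alone. For 48 h against 24 h 3 were also called with a pseudocount of 1, and with the filter at percentile 75 the counts at 72 h were 2 against uninduced cells and 2 against 24 h. For 48 h against 24 h, 1 in place of 2 was called with probe sets averaged and with the 6 arrays alone, in both cases without Ddc. With the replicate number as a block the counts were 1, 3, 3, 2, 0 and 3, as without it, and no call of a gene changed. Signs turned in 5 differences, none of which passed in either setting. Slc18a3 for 48 h against 24 h turned with quantile normalization (-0.0014), and for 72 h against 24 h with array weights (0.38), without induced 24 h replicate 1 (0.19) and without induced 72 h replicate 3 (0.27), with -0.21 to 0.27 over the arrays left out. Slc18a2 for 72 h against 48 h turned without induced 72 h replicate 3, with -0.03 to 0.83 over the arrays left out. At or below the floor on all 12 arrays were 2 of the 10 genes, but 8 with the floor at percentile 75, 0 at percentile 25 and 4 with probe sets averaged. Quantile normalization moved the median of all genes by -0.15 at 48 h and -0.16 at 72 h, and turned the sign of 0 called genes in the lists. Over the alternatives the count of all genes called ranged from 385 to 2972 at 24 h (the upper value without induced 24 h replicate 1), 2921 to 6956 at 48 h and 3468 to 8108 at 72 h against uninduced cells (1335, 4316 and 5180 as reported). It ranged from 1045 to 3012 for 48 h against 24 h, 19 to 2549 for 72 h against 48 h and 2020 to 5040 for 72 h against 24 h (2104, 94 and 3696 as reported). The causes were not tested. Dim signals near the array median limit what could be tested for 6 of the 10 genes.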

Other observations

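Markers of other lineages changed through a few genes each. Among all tested genes, 22.6% were higher and 14% lower at 48 h, and 25.3% and 18.6% at 72 h. Of 3 tested pancreatic endocrine markers 2 rose at 48 and 72 h, with Sst, the somatostatin gene, at 859 to 4070 at 72 h against 3.02 to 3.57 in uninduced cells (6.27 ± 0.50, limma, adjusted p = 1.33e-06). The other riser, Isl1, is also in the lists of glutamatergic factors, cholinergic factors and peripheral sensory neuron markers. Ins2, Gcg, Iapp, Pdx1 and Pax4 were at the floor in all groups. Of 6 tested visceral endoderm and liver markers, a lineage that also expresses Ddc, 1 rose at 48 h and 3 at 72 h, led by Foxa2 (2.66 ± 0.33 at 48 h). Foxa2 is also in the monoaminergic list, and Insm1 is in that list and in the chromaffin and sympathetic list. Afp, Alb and Apoa1 were at the floor on every array. Of 8 tested astroglia markers 3 rose and 2 fell at 48 h, and 2 rose and 2 fell at 72 h, with Fabp7 (4.82 ± 0.65 at 48 h) and Slc1a2 higher and Slc1a3 lower by 0.76.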
